A study of Mus musculus with 12 samples.

Results

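Histone deacetylases remove acetyl groups from lysines of histones and of other proteins. The 10 genes described here are Hdac1 to Hdac9 together with Hdac11, found by gene symbol among 30165 genes of the OPC table and 17918 genes of the neuron table. They were selected by name with the Hdac1 value of the OPC comparison in view, so their OPC differences between dKO and ctl are given as a description with no test. The neuron libraries were not used for that choice, and the differences there were tested. All 10 genes passed the filter on low counts in both cell types.

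Oligodendrocyte precursor cells (OPCs) and neurons were isolated from mouse cortex and their mRNA was sequenced, as 3 libraries in each of 4 groups, each made from 2 pooled mice. The ctl mice carry the genotype label WT, and whether they bear Cre or floxed alleles is not given in the sources used here. The dKO mice carry NG2-CreERT2 and floxed alleles of CAV1.2 (Cacna1c) and CAV1.3 (Cacna1d), the pore-forming subunits of L-type calcium channels, so recombination depends on tamoxifen and on activity of the NG2 promoter, which pericytes also use. Tamoxifen was given at 100 mg/kg on postnatal days 7 and 8, and the age at isolation is not given in the sources used here. OPCs were captured with antibodies against CD140, NG2 and O4, and neurons were what remained after ACSA-2, CD31, CD11b and O4 cells were removed.

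Class I deacetylases (Hdac1, Hdac2, Hdac3 and Hdac8) are largely nuclear. Hdac1 and Hdac2 are close paralogues that share the NuRD, CoREST and Sin3 corepressor complexes, while Hdac3 works in the NCoR complex. Class IIa enzymes (Hdac4, Hdac5, Hdac7 and Hdac9) have little catalytic activity of their own, bind Mef2 transcription factors, and leave the nucleus when calcium-dependent kinases phosphorylate them and 14-3-3 proteins bind them. Hdac6, of class IIb, is mainly cytoplasmic and deacetylates tubulin, and Hdac11 is the single class IV enzyme. Loss of both Hdac1 and Hdac2 from oligodendrocyte lineage cells is known to block their differentiation.

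A processed pseudogene of Hdac1, named Hdac1-ps in the OPC table, bears on every Hdac1 value because reads from the gene and the copy can be alike. In GENCODE M21 (GRCm38) Hdac1 has 14 exons and lies at chr4:129516104-129542713 on the minus strand, and Hdac1-ps is a single exon at chr17:78491582-78493025 on the plus strand. The 1444 bases of the pseudogene aligned without a gap to the first 1444 of the 1446 coding bases of Hdac1 (stop codon left out), with 9 differing bases and 99.4% identity. Counted from 1 at the first base of the Hdac1 start codon, with the Hdac1 base first, the differences are G342A, C408T, T441A, A460G, C465T, C472T, T482C, T719C and C1170A. The 240 coding bases below hold 7 of the 9, written in capitals, and are shown because, within the aligned part, the copies differ only at such positions. Hdac1 has 3445 bases of exon in the OPC table, and reads from outside the aligned part also separate it from the copy. The Hdac1 stretch spans 3 exons, introns left out, within chr4:129522965-129528954 of GRCm38 (minus strand), and the Hdac1-ps stretch is chr17:78491834-78492073 of GRCm38 (plus strand).
Hdac1: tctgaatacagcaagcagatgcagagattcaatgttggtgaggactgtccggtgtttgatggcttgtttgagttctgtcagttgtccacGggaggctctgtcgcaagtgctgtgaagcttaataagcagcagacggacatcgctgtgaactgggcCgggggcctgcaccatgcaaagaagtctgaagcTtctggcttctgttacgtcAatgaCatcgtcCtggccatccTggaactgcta
Hdac1-ps: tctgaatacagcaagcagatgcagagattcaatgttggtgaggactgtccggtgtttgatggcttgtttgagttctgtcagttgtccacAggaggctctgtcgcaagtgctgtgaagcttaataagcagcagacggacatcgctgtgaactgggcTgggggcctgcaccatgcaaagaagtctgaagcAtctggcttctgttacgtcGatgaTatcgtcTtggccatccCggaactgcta
The longest run without a difference is 450 bases. Of the 1297 windows of 150 bases, the read length, in the Hdac1 coding sequence, 705 (54.4%) also occur unchanged in Hdac1-ps. The coding sequences of the other class I members did not share any window of 50 bases with Hdac1. Identity over the aligned bases was 75.4% for Hdac2, 63.8% for Hdac3 and 57.0% for Hdac8.

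Total counts were 14935963 to 19812274 in the OPC libraries and 15052892 to 16344601 in the neuron libraries. In OPC libraries, summed CPM (counts scaled to one fixed total per library) of 7 OPC markers were 255 to 524 in ctl and 456 to 1024 in dKO, below the 63551 to 73967 and 46808 to 81831 of 8 oligodendrocyte markers. In neuron libraries, 9 neuron markers summed to 566 to 779 CPM in ctl and 765 to 1354 in dKO, below 8 endothelial markers at 13866 to 16213 and 7011 to 12558. There 4 red blood cell genes summed to 10959.5 to 48485.6 CPM in ctl and 17153.7 to 72391.5 in dKO. The choroid plexus gene Ttr was at 4798 to 9106 CPM in ctl and 8372 to 29902 in dKO neuron libraries. In OPC libraries Ttr was at 9562 to 22127 CPM in ctl and 15259 to 16209 in dKO. OPC dKO library 2 had no count of 4 Y-linked genes and a normalized Xist count of 13595, while the other 5 OPC libraries had Xist at 20.2 or less. In neurons, ctl library 1 and dKO library 1 carried Y-linked counts (6031 and 5274 summed) and the other 4 had 57.7 or less. The floxed Cacna1c averaged 407 ± 33.1 normalized counts in ctl OPCs and 300.4 ± 43.5 in dKO OPCs (SD, n = 3), a log2 fold change of -0.44 (SE 0.15) that did not pass edgeR's quasi-likelihood test (adjusted p = 0.349). Cacna1d averaged 232 ± 36.1 and 159 ± 69.9 (log2 fold change -0.55, SE 0.31, adjusted p = 0.531). According to the study's methods, the floxed parts are named exons of each gene. The counts cover the whole genes (21864 and 15183 bases of exon), so they do not measure how much of the floxed parts was lost.

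Hdac1 mRNA had the largest log2 fold change among the members between the OPC groups. Its normalized counts were 993, 1080.1 and 976 in ctl OPCs, against 443, 553 and 502 in dKO OPCs. Every dKO library lay well below every ctl library. The log2 fold change was -1.02 (SE 0.12), so that the dKO level was 49.2% of ctl, and it was -1.10 to -0.94 when each library was left out in turn. In bulk libraries fewer cells expressing a gene and less mRNA per cell cannot be told apart. The same libraries differed in markers of other cells: all 10 microglia markers had higher values in dKO at an unadjusted p under 0.05, 5 of them with no overlap between the groups, with a median log2 fold change of 1.33 (0.95 to 1.64 with each library left out in turn) and summed CPM of 206 to 249.8 in ctl and 264 to 867 in dKO. For astrocytes such a p held for 6 of 7 markers, 3 of them with no overlap (median 1.08, or 0.51 without dKO library 2, summed CPM 1015 to 1810.4 in ctl and 1734 to 5227 in dKO), against 6.27% of all genes higher and 5.27% lower at that threshold. Of 8 oligodendrocyte markers 2 were above 0 in log2 fold change, with a median of -0.42 (-0.24 without ctl library 2), and 2 (Mog and Opalin, named after their values were seen) were lower at that threshold, each with no overlap, whereas 7 of 7 OPC markers were above 0 (median 0.66, or 0.21 without dKO library 2 and 1.03 without ctl library 2, with 1 marker at that threshold). The part of these cells in the Hdac1 difference was not tested.

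Hdac1-ps had the opposite pattern. Its raw counts were 70, 58 and 52 in ctl and 208, 194 and 227 in dKO OPC libraries, and the normalized counts were 61.2, 69.1 and 54.3 against 203, 176 and 243. No library of one group reached the other, and the log2 fold change was 1.75 (SE 0.21). The pseudogene held 5.27% to 6.01% of the reads counted to either copy in ctl libraries and 24.1% to 32.6% in dKO libraries. When the counts of both were added, the sums were 1054, 1149 and 1030.0 normalized counts in ctl and 646, 729.5 and 745 in dKO. The groups stayed apart and the log2 fold change of the sum was -0.61 (SE 0.11). The excess of Hdac1-ps in dKO equalled 28.2% of the Hdac1 shortfall in normalized counts. How reads matching both copies were assigned was not tested.

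**Figure D1:**
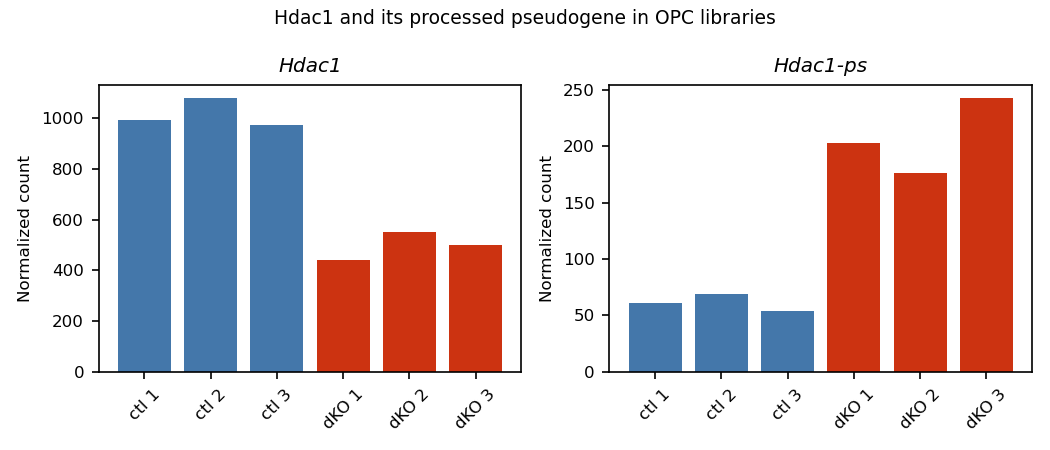
Normalized counts of Hdac1 (left) and Hdac1-ps (right) in each OPC library, with ctl in blue and dKO in red. Hdac1 bars are 976 to 1080.1 in ctl and 443 to 553 in dKO, whereas Hdac1-ps bars are 54.3 to 69.1 in ctl and 176 to 243 in dKO.

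The other class I members differed little between the OPC groups. Their summed levels overlapped, at 25.4, 25.0 and 24.7 FPKM (fragments scaled to gene length and library size) in ctl and 25.2, 26.6 and 26.1 in dKO. Hdac2, the paralogue of Hdac1, was at 9.50, 9.75 and 9.93 FPKM in ctl and 10.02, 10.4 and 11.9 in dKO. These ranges were apart in FPKM, but normalized counts of 755 to 781.4 and 780.9 to 940.4 overlapped. The log2 fold change of Hdac2 was 0.14 (SE 0.11), and 0.053 without dKO library 3. Hdac3 overlapped between the groups, with 13.9, 12.9 and 11.9 FPKM in ctl and 13.1, 12.9 and 11.5 in dKO (log2 fold change -0.05, SE 0.11). Hdac8, a smaller enzyme that acts on cohesin, was at 1.98, 2.36 and 2.90 FPKM in ctl and 2.14, 3.31 and 2.66 in dKO (log2 fold change 0.17, SE 0.22). Without dKO library 2, where it was highest, its log2 fold change was -0.01. Hdac8, like Hdac6, lies on the X chromosome, and dKO library 2 was the only OPC library with no count of the Y-linked genes. The part of sex in the values of these genes was not tested.

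Hdac1 averaged 16.8 ± 1.05 FPKM in ctl and 8.24 ± 0.862 in dKO (SD, n = 3), a difference of -8.53 (SE 0.785). Hdac2 was higher by 1.04 (SE 0.595), which is 12.2% of the Hdac1 difference. It was highest in dKO library 3, at 11.9 FPKM, without which its log2 fold change was 0.053 against 0.14 with all libraries. Hdac2, Hdac3 and Hdac8 summed to 25.1 ± 0.335 FPKM in ctl and 26.0 ± 0.692 in dKO, a difference of 0.915 (SE 0.444). All 4 class I members summed to 41.8 ± 1.10 in ctl and 34.2 ± 1.55 in dKO, or 81.8% of ctl. Leaving out each library in turn gave 80.0% to 83.7%. Hdac1 made up 40.1% ± 1.52 of the class I sum in ctl and 24.0% ± 1.44 in dKO. On these values Hdac1 was above Hdac2 in each ctl library and below it in each dKO library. The order in dKO turned when Hdac1-ps reads were added to Hdac1, an alternative added after the data were seen: Hdac1 was then at 10.8, 11.995 and 12.3 FPKM, above Hdac2 in 3 of 3 dKO libraries. With those reads the class I sum in dKO was 87.9% of ctl, and Hdac1 made up 41.5% ± 1.59 of it in ctl and 31.0% ± 1.02 in dKO.

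**Figure D2:**
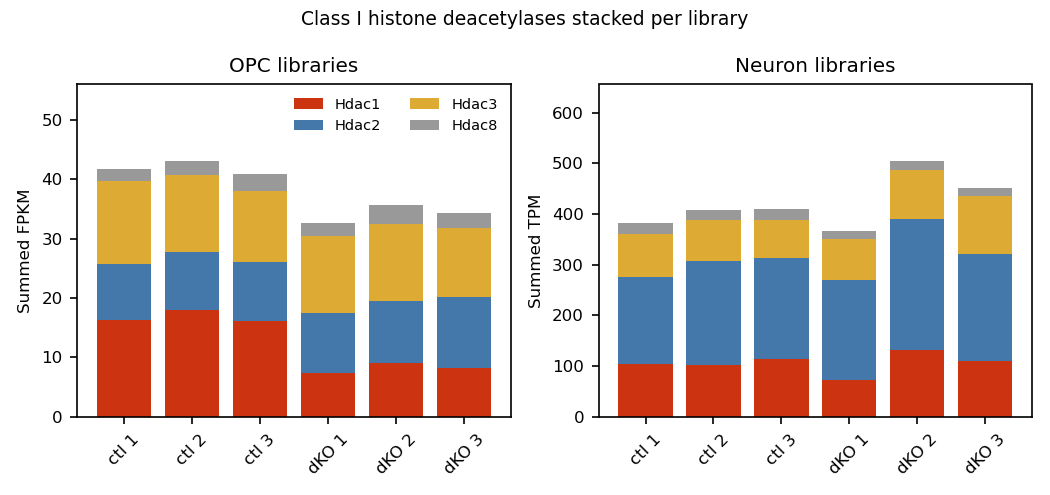
Stacked levels of the 4 class I members per library, as FPKM in OPCs (left) and TPM (scaled to transcript length and to one fixed total per library) in neurons (right). In OPCs the Hdac1 segment is shorter in every dKO library and the summed bars average 34.2 FPKM in dKO against 41.8 in ctl, whereas in neurons the bars of the groups overlap.

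Class IIa values were mostly lower in dKO OPCs. Hdac9 was the most uniform member in ctl, with normalized counts of 405, 407 and 404, against 276, 267 and 338 in dKO. The log2 fold change was -0.47 (SE 0.14) and no libraries overlapped. Hdac7 was also apart, at 1639, 1766 and 1526 in ctl and 1212, 1153 and 1407 in dKO (log2 fold change -0.39, SE 0.12). Hdac5, the most abundant class IIa member, was at 3731, 4579 and 3581 in ctl and 3558, 3573 and 2941 in dKO (log2 fold change -0.24, SE 0.14, and -0.12 without ctl library 2). Its groups were barely separated in normalized counts and overlapped in FPKM, where dKO library 1 (23.3) lay above ctl library 3 (23.2). Hdac4 differed least in this class, at 611, 576 and 632 in ctl and 578, 697 and 654 in dKO (log2 fold change 0.08, SE 0.12, and 0.02 to 0.16 with each library left out in turn). The class IIa sum was 43.2 ± 4.67 FPKM in ctl and 35.8 ± 1.21 in dKO. The oligodendrocyte markers of these libraries had a median log2 fold change of -0.42, and their part in the class IIa values was not tested.

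Hdac6 and Hdac11 overlapped between the OPC groups. Hdac6, the tubulin deacetylase, had 445, 473 and 489.9 normalized counts in ctl and 349.9, 467 and 443 in dKO (log2 fold change -0.16, SE 0.14, and -0.043 without dKO library 1). Hdac11 had 2458, 3370.2 and 2575 in ctl and 2469, 2315 and 1858 in dKO (log2 fold change -0.34, SE 0.16). Its spread came largely from ctl library 2, without which the log2 fold change was -0.18.

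In normalized counts, 4 of the 10 members (Hdac1, Hdac5, Hdac7 and Hdac9) had every dKO library below every ctl library and none had the reverse, whereas in FPKM Hdac5 overlapped and Hdac2 was higher with no overlap. Over all 17364 genes tested in OPCs, 9.54% were lower and 7.41% higher in this way. Because the members were selected with values of this comparison known, nothing is read from that count. The median log2 fold change was -0.20 over the members and 0.01 over all genes. With edgeR and adjustment over all genes, 0.00576% of genes passed in OPCs, which is the single gene 1520401A03Rik, named here after its values were seen. The count was 293 with DESeq2, 87 with no filter on low counts, 27 with a replicate block and 199 without dKO library 2.

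**Figure D3:**
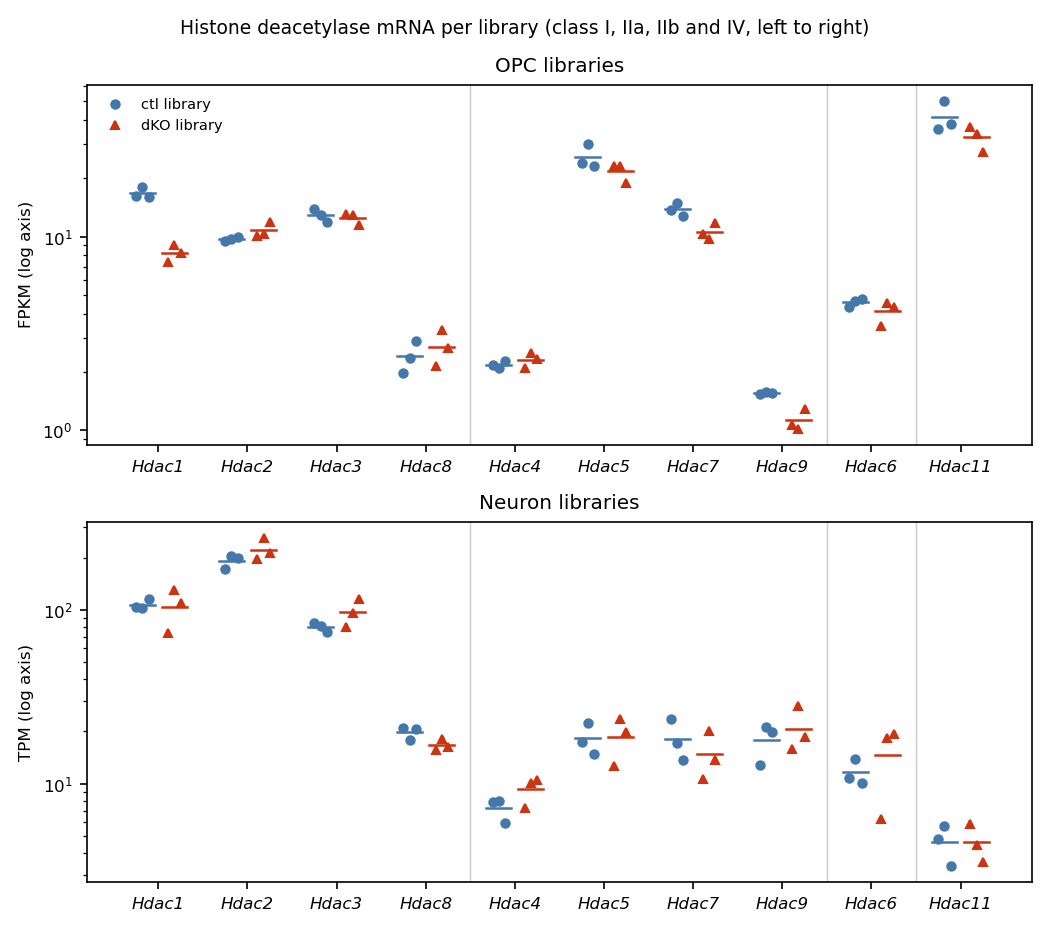
Level of each member in every library, as FPKM in OPCs (top) and TPM in neurons (bottom) on log axes, with ctl circles, dKO triangles and short lines at the group means. In OPCs Hdac11 and Hdac5 lead and Hdac1 lies above Hdac2 in ctl and below it in dKO (above it in both with Hdac1-ps reads added, which are not drawn), while in neurons Hdac2, Hdac1 and Hdac3 lead in both genotypes.

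The members spanned a wide range of levels in ctl OPCs. The order per length was Hdac11 (41.4 ± 7.71 FPKM), Hdac5 (25.7 ± 3.69), Hdac1 (16.8 ± 1.05), Hdac7 (13.8 ± 1.09), Hdac3 (12.9 ± 1.00), Hdac2 (9.73 ± 0.216), Hdac6 (4.59 ± 0.248), Hdac8 (2.41 ± 0.458), Hdac4 (2.18 ± 0.0910) and Hdac9 (1.55 ± 0.0190). Among neighbours in that order, only Hdac7 with Hdac3 and Hdac8 with Hdac4 had overlapping libraries. In dKO OPCs Hdac1 ranked below Hdac3, Hdac2 and Hdac7, at 8.24 FPKM, and its libraries overlapped neither those of Hdac7 nor those of Hdac6 below. With Hdac1-ps reads added it ranked between Hdac3 and Hdac2, at 11.7 ± 0.795 FPKM, and overlapped both.

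The order was different in neuron libraries, where values are TPM summed over transcripts. Class I led in ctl, with Hdac2 at 192 ± 17.5 TPM, Hdac1 at 107 ± 6.59 and Hdac3 at 79.8 ± 4.83, none overlapping the next. Hdac8 (19.9 ± 1.66), Hdac5 (18.3 ± 3.86), Hdac7 (18.2 ± 4.91), Hdac9 (17.9 ± 4.48) and Hdac6 (11.7 ± 2.03) formed a run in which each overlapped the next. Hdac4 (7.26 ± 1.11) and Hdac11 (4.62 ± 1.17) were lowest, so Hdac11 stood at opposite ends of the order in the 2 kinds of library. Class I made 399 of the 477 TPM of all members in ctl neurons and 41.8 of the 131 FPKM in ctl OPCs. The tables were quantified in different ways, so levels were not tested between cell types. As given above, oligodendrocyte markers exceeded OPC markers in OPC libraries, and endothelial markers exceeded neuron markers in neuron libraries. Both orders are therefore those of mixed libraries, and the part of each cell type in them was not tested.

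In neurons, dKO and ctl libraries did not differ detectably in Hdac1. Its counts, all from 1 transcript, were 1619, 1724 and 1924 in ctl and 1542, 2132 and 1654 in dKO. The groups overlapped, with a log2 fold change of -0.04 (SE 0.16, adjusted p = 0.956, edgeR quasi-likelihood test). Without ctl library 3 or dKO library 1 the sign turned (0.068 and 0.049). Hdac1-ps has no entry in the neuron table, so reads from the gene and the copy cannot be told apart there. Summed class I levels were 399 ± 15.4 TPM in ctl and 441 ± 70.0 in dKO neurons (SD, n = 3), of which Hdac1 made up 26.9% ± 1.44 and 23.4% ± 3.06. The neuron and OPC differences of Hdac1 were not tested against each other.

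Hdac4 and Hdac3 had the smallest p among the members in neurons. Normalized Hdac4 counts were 571, 605 and 508 in ctl and 694, 738 and 757 in dKO, with no overlap. The log2 fold change was 0.38 (SE 0.14), with an unadjusted p of 0.0243 and an adjusted p of 0.521 in edgeR. Hdac3 had 1353, 1340.3 and 1363 in ctl and 1674, 1517 and 1815 in dKO, again with no overlap (log2 fold change 0.30, SE 0.13, adjusted p = 0.546). The same libraries differed in cell markers. Of 9 neuron markers 8 were above 0 in log2 fold change (median 0.54), but 4 without dKO library 1 (median -0.033). None of 8 endothelial, 8 oligodendrocyte and 10 microglia markers was above 0 (medians -0.42, -1.02 and -0.67), whereas without ctl library 1 the oligodendrocyte and microglia medians were -0.059 and 0.057. Without dKO library 1 the endothelial median was -0.24. Of the endothelial markers 6 were lower with no overlap and 3 had an unadjusted p under 0.05 in edgeR, against 0 of the oligodendrocyte and microglia markers. Astrocyte markers were below 0 in 6 of 7 (median -0.41, 2 at that threshold), but their median was 0.43 without ctl library 1. Ttr, of choroid plexus, was at 1.22 and at that threshold. Their part in the neuron values was not tested. In TPM, which scales each library to its own transcript total, both genes overlapped between groups. Among all 14352 genes tested in neurons 7.5% were higher and 7.82% lower with no overlap, and 4.96% and 4.04% had an unadjusted p under 0.05 in those directions, whereas 2 of the 10 members were higher and none lower. Adjusted over all genes, 0% passed with edgeR (1292 at an unadjusted p under 0.05, and 88 adjusted with DESeq2), and no member passed with either tool.

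The remaining 7 members overlapped between the neuron groups. Hdac2 had 2776, 3406 and 3636 normalized counts in ctl and 4154, 4063 and 3328 in dKO (log2 fold change 0.23, SE 0.16, adjusted p = 0.694, and 0.13 to 0.33 with each library left out in turn). Hdac6 varied most within dKO, with 284 in library 1 and 606 and 641 in libraries 2 and 3. The ctl values were 366, 496 and 390.0. Its log2 fold change was 0.29 (SE 0.30), and without dKO library 1 it was 0.58 (SE 0.18, unadjusted p = 0.0118, adjusted p = 0.587, edgeR), a lower p than those of Hdac4 and Hdac3. That library stood apart over all genes, with a chi-square per gene of 113 and 101 to the other dKO neuron libraries, which had 22.2 between them. Hdac6 lies on the X chromosome, and dKO library 1 and ctl library 1 were the neuron libraries that carried Y-linked counts. The part of sex in the Hdac6 values was not tested. Hdac7, which is known from endothelial cells, had a log2 fold change of -0.25 (SE 0.20, adjusted p = 0.739, and -0.067 without ctl library 1) beside the endothelial median of -0.42. In OPCs Hdac7 was at -0.39 while 8 of 8 endothelial markers were above 0 (median 0.29, or -0.018 without dKO library 3). Whether these are linked was not tested.

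**Figure D4:**
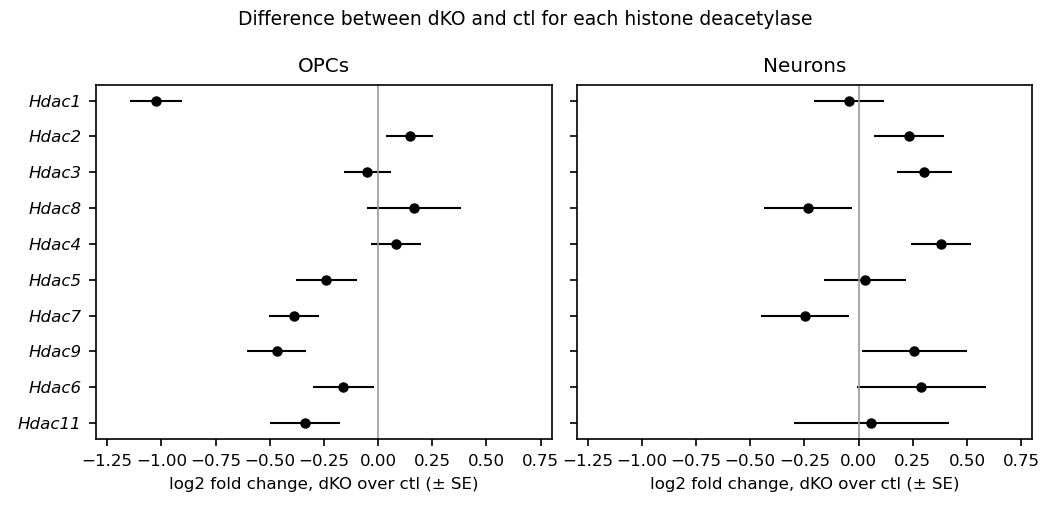
The log2 fold change of each member, dKO over ctl, with its standard error, in OPCs (left, described with no test) and neurons (right). Hdac1 lies at -1.02 in OPCs and -0.04 in neurons, and all other OPC values lie between -0.47 and 0.17.

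The neuron table separates transcripts, which the OPC table does not. Hdac1 and Hdac3 are listed with 1 transcript each, and 95.9% to 98.7% of Hdac2 counts per library went to 1 of its 4 transcripts. Hdac9 is listed with 33 transcripts. The leading one took 42.2%, 39.6% and 40.7% of Hdac9 counts in ctl and 41.8%, 35.9% and 38.8% in dKO. Its coding length in GENCODE M21 is 1764 bases. Hdac9 is known to give rise to a short form that lacks the deacetylase domain. The share of the leading Hdac9 transcript overlapped between ctl and dKO. In Hdac7 the most counted transcript took 0.0647% to 39.9% of counts per library and in Hdac6 14.04% to 67.8%, so these shares were not stable between libraries and are not compared.

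The partners of the deacetylases were counted from lists chosen with earlier results known. Across 95 genes tested in OPCs (NuRD, CoREST, Sin3, NCoR, MiDAC, class IIa partners, acetyltransferases, other deacetylases, lineage genes), 3 were higher and 4 lower at an unadjusted p under 0.05, or 7.37% in all, against 6.27% higher and 5.27% lower over all genes. None passed the adjusted threshold and the lowest adjusted p was 0.296 (edgeR). The median log2 fold change was 0.01 over these genes and 0.01 over all genes. In the complexes of Hdac1 and Hdac2, 0 of 13 NuRD genes, 2 of 9 CoREST genes and 1 of 12 Sin3 genes had such a p. The CoREST genes were the scaffold Rcor3 (log2 fold change -0.35, SE 0.12, adjusted p = 0.358) and Zmym3 (-0.25, SE 0.10, adjusted p = 0.425), and the Sin3 gene was Sap130 (-0.27, SE 0.12, adjusted p = 0.432). None of 4 NCoR genes and none of 3 MiDAC genes had an unadjusted p under 0.05.

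Among 23 class IIa partners in OPCs the calcium-dependent kinase subunit Camk2b alone had such a p, at a log2 fold change of 0.73 (SE 0.20, adjusted p = 0.300). The acetyltransferase coactivator Ncoa3 had -0.43 (SE 0.12, adjusted p = 0.296), and none of 8 other deacetylases had such a p. Of 10 lineage genes linked to Hdac1 and Hdac2, the differentiation inhibitors Id2 (0.67, SE 0.19, adjusted p = 0.310) and Hes5 (1.83, SE 0.71, adjusted p = 0.387) had one. Over all genes, 6.27% were higher and 5.27% lower at that threshold. Of these 10 genes, 7 were above 0 in log2 fold change and the others below it. Id2 was higher in each dKO library and Hes5 overlapped. Sox11 was next, at 0.78 (SE 0.36, adjusted p = 0.457). Astrocytes also express Id2 and Hes5, and the astrocyte markers given above were higher in dKO too. The OPC markers given above were likewise above 0 (median 0.66), so the sources cannot be told apart.

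In neurons 5 of 96 such genes were higher and 2 lower at an unadjusted p under 0.05, or 7.29% in all, against 4.96% higher and 4.04% lower over all genes. The lowest adjusted p was 0.521 in edgeR, so none of those named next passed. The higher ones were the methyl-DNA binding NuRD subunit Mbd2 (log2 fold change 0.81, SE 0.22), the CoREST scaffold Rcor2 (0.79, SE 0.24), the Sin3 subunit Sap30 (0.35, SE 0.15), the acetyltransferase Hat1 (0.37, SE 0.13) and the transcription factor Sox2 (0.71, SE 0.23). The lower ones were Arid4a (-0.33, SE 0.14), also of Sin3, and Sik1 (-0.42, SE 0.16), a kinase that phosphorylates class IIa deacetylases.

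The genes whose profile over the 6 OPC libraries was nearest to that of Hdac1 were Iqcc, Gm38255, Gm45235, Tdrd6 and Duxbl1, out of 17363. Nearness is the root mean square distance of centred log2 CPM, 0.0757 for Iqcc and 0.107 to 0.119 for the other 4. Of the other members Hdac9 was nearest, at 0.312 and rank 372, and then Hdac7, at 0.339 and rank 626, while Hdac2 was at 0.582 and rank 10616. Iqcc had 201 ± 9.94 normalized counts in ctl and 102 ± 10.8 in dKO (SD, n = 3; log2 fold change -0.97, SE 0.18).

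Iqcc lies close to Hdac1 on chromosome 4, 72.4 kb upstream by the deposited coordinates (mm39 in the processing notes), in which Hdac1 is chr4:129409897-129436506. The genes around Hdac1 were then counted, in a window of 500 kb chosen after these values were seen. Of 29 tested neighbours in OPCs, 6 had every dKO library below ctl, 3 had every one above, and 20 overlapped, where 9.54% of all genes were lower and 7.41% higher in this way. Their median log2 fold change was -0.07. The 6 lower genes include Iqcc, whose profile led to this window, so nothing is read from that count. Ccdc28b, 76.6 kb upstream, was at -0.97 (SE 0.15), and Dcdc2b, which lies between Iqcc and Hdac1, was at 0.77 (SE 0.20). Farther upstream, Tmem39b (-0.38, SE 0.19) and Spocd1 (-1.27, SE 0.38) were also lower with no overlap. Marcksl1 and Bsdc1, on the other side of Hdac1 at 0.119 and 27.6 kb, overlapped (-0.08, SE 0.17, and -0.11, SE 0.12). Rbbp4, a histone-binding subunit shared by NuRD and Sin3 that lies 181 kb downstream, had -0.16 (SE 0.11). In neurons Iqcc was at 0.04 (SE 0.20) and Ccdc28b at 0.22 (SE 0.19). Of 24 of these neighbours tested in neurons none was lower in every dKO library and 1 was higher, Marcksl1 (log2 fold change 0.71, SE 0.24, adjusted p = 0.521, edgeR). Around Hdac1-ps on chromosome 17, 14 of 15 tested neighbours overlapped in OPCs, and the exception was Prkd3, lower at -0.25 (SE 0.12). In neurons 2 of 11 were lower in every dKO library, where 7.82% of all genes were, namely Vit (-1.63, SE 0.66, adjusted p = 0.533) and Eif2ak2 (-0.43, SE 0.18, adjusted p = 0.545, edgeR). Whether ctl and dKO mice differ in sequence around Hdac1 or Hdac1-ps was not tested.

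**Figure D5:**
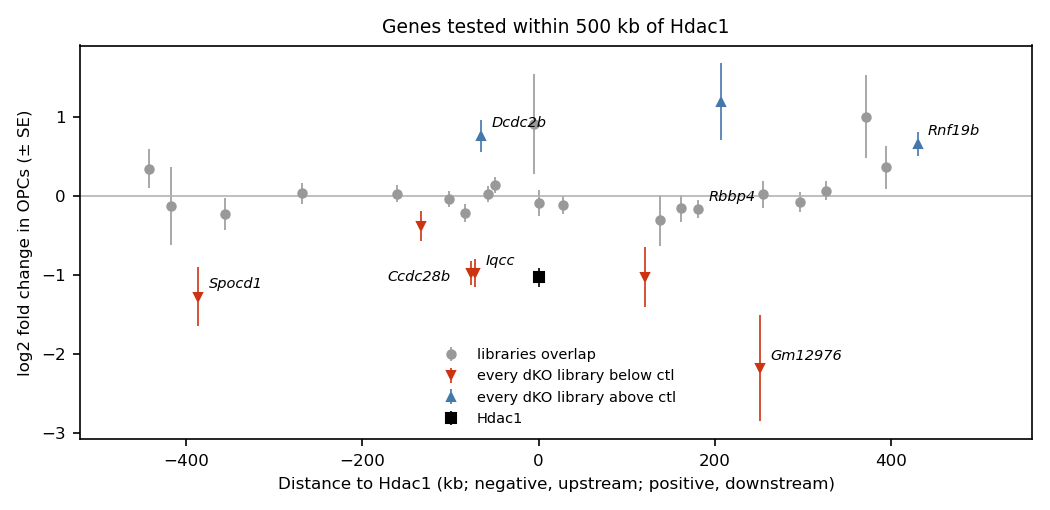
The log2 fold change in OPCs, dKO over ctl with its standard error, of the 29 tested genes within 500 kb of Hdac1 (black square) against distance in kb. Iqcc and Ccdc28b lie near -0.97 beside Hdac1, while most neighbours lie near 0 with overlapping libraries.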

How the data were processed

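RNA was prepared with a poly(A) kit and sequenced as paired 150-base reads. According to the study's methods, reads were aligned with HISAT2 to GRCm38, counted with featureCounts and compared with DESeq2, whereas the processing notes name mm39, the build of the OPC coordinates used here. The OPC table that the authors deposited holds raw counts and FPKM per gene. For neurons the authors deposited estimated counts, FPKM and TPM per RefSeq transcript, and the quantifier is not given in the sources used here. The deposited normalized values, group averages and the study's own fold changes and p-values were not used.

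Neuron estimated counts were summed per gene and rounded (17794 of 17918 genes matched a symbol in the RefSeq table for GRCm38.p6). Genes whose TMM-normalized count averaged 10 or more (17364 in OPCs, 14352 in neurons) were fitted with edgeR 4.0.16 (R 4.3.3), quasi-likelihood test on genotype, separately per cell type, with Benjamini-Hochberg adjustment over all genes. Normalized counts are scaled to the mean effective library size, and log2 CPM has 1 added. The SE follows from the quasi-likelihood F statistic. The same fit was run on simulated counts with known changes, and the outcome is not given here. Replicate libraries differed beyond counting noise (the lowest chi-square per gene was 14.3), so each was kept. Same-numbered ctl and dKO libraries did not deviate together (correlations -0.15 to 0.19 in OPCs and -0.05 to 0.17 in neurons), so no pairing was used.

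The named genes are the 10 members, Hdac1-ps, Cacna1c, Cacna1d, up to 3 genes of each partner list with the smallest p, and the 5 nearest to Hdac1. Members and lists were chosen with earlier results of these data known. Genes around Hdac1 were added after values were seen. A gene of the partner lists is not reported here and was left out of their counts. How featureCounts treated reads matching both Hdac1 and Hdac1-ps, and strand, is not given in the sources used here. Alternatives were DESeq2 1.42.0, its size factors, no filter, a replicate block, each library left out, and Hdac1 and Hdac1-ps counts added. Sequences are from GENCODE M21 (GRCm38) and were aligned end to end with Biopython.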

Additional observations from a re-analysis of the deposited data

How the results depend on the processing

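The OPC differences of the members kept their direction in 99 of 101 comparisons of a member with an alternative fit, and the exceptions were Hdac3 without ctl library 1 (0.01) and Hdac8 without dKO library 2 (-0.01). For Hdac1 in OPCs the log2 fold change was -1.03 to -1.002 with DESeq2, its size factors, no filter or the replicate block and -1.10 to -0.94 with single libraries left out. Adding Hdac1-ps counts gave -0.61, and -0.66 to -0.55 with single libraries left out. In neurons no member passed an adjusted threshold in any of 100 such comparisons (lowest adjusted p = 0.365), and the sign turned in 7, all with a library left out: Hdac1 ranged from -0.16 to 0.068 (0.068 without ctl library 3 and 0.049 without dKO library 1), Hdac5 from -0.10 to 0.19 and Hdac11 from -0.28 to 0.26. Hdac1-ps counts could not be added in neurons, whose table has no entry for it. Genes passing in OPCs were 1 with edgeR, 293 with DESeq2, 87 with no filter, 27 with the replicate block and 1 to 199 with single libraries left out (199 without dKO library 2, 2 without dKO library 3). In neurons they were 0 with edgeR, also with single libraries left out (0 to 0), and 88 with DESeq2. The cause of these differences was not tested. Own counts scaled to gene length and library total were 0.995 to 1.01 times the deposited FPKM. Class I sums without Hdac1 in dKO were 102% to 105% of ctl with single libraries left out, an alternative added after the data were seen, as were the ranges for the summed counts and marker lists. Adding Hdac1-ps reads moved the Hdac1 level in dKO OPCs from 8.24 to 11.7 FPKM and the class I sum from 81.8% to 87.9% of ctl. Hdac11 had the lowest counts of the members in neurons, 70 to 148 per library, and the part of depth in its spread was not tested.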
